A study of Mus musculus with 6 samples.

Results

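Genes commonly read as signs of dedifferentiation in cultured hepatocytes, namely Krt8, Krt18, Krt19, Vim, Actb, Actg1, Anxa2, Lgals3, S100a6 and Cd44, were followed in RNA sequencing of primary mouse hepatocytes. They were chosen by name, as 10 of the 41388 genes in the deposited table, and all 10 passed the filter on low values. The hepatocytes came from C57BL/6J mice, were left in growth medium overnight after collagenase digestion, and then received adenovirus for 24 h. Of the 6 libraries, 3 came from cells given adenovirus encoding β-gal (β-galactosidase, the control protein; replicates 1, 2 and 3) and 3 from cells given adenovirus encoding Aloxe3 (a lipoxygenase family enzyme; replicates 7, 8 and 9). All libraries thus come from cells given an adenovirus, the age and number of the mice are not given in the sources used here, and neither freshly isolated nor untreated hepatocytes are among the libraries, so a rise in culture could not be measured. The question asked of the data was whether Aloxe3 overexpression moved the levels of these transcripts. The labels do not say whether the replicates came from separate cultures or animals, so the p-values measure the spread between these libraries, which may be technical.

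In liver, hepatocytes are simple epithelial cells whose cytoplasmic intermediate filaments are built from keratin 8 paired with keratin 18. When they are plated on a stiff surface they spread, assemble actin stress fibers, lose many liver functions, and take up genes of bile duct, progenitor and mesenchymal cells. Keratin 19 is a filament protein of bile duct cells and vimentin one of mesenchymal cells. β-Actin and γ-actin form the cortical and stress fiber actin of nonmuscle cells, annexin A2 ties membranes to that actin, S100A6 is a small calcium-binding partner of annexins, galectin-3 is a lectin that binds cell surface sugars, and CD44 is the surface receptor for hyaluronan, anchored to actin from the inside.

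The values were RPKM (read counts divided by gene length and by library size), in which levels of different genes can be compared per length. The library sizes were between 25521908 and 32431318 reads. Aloxe3 itself was at 2.04, 2.06 and 1.74 RPKM in the β-gal libraries and at 42.3, 45.8 and 56.3 RPKM in the Aloxe3 libraries, a log2 fold change of 4.05 ± 0.10 (SE) that fits the labels (adjusted p = 4.7e-06, limma). Over the 12693 genes that averaged 0.5 RPKM or more, limma called 50 genes changed at an adjusted p under 0.05, 45 higher and 5 lower. This count was 6 to 19 when any single library was left out, with 0 lower calls without β-gal replicate 1, Aloxe3 replicate 7 or Aloxe3 replicate 8. All fold changes below are differences of log2(RPKM + 1) between the Aloxe3 and the β-gal libraries.

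None of the 10 genes passed the test, where 0.394% of all tested genes did, 0.355% as higher and 0.0394% as lower (limma, Benjamini-Hochberg adjustment). At an unadjusted p under 0.05, 5 of the 10 were lower with Aloxe3 (Krt8, Vim, Anxa2, S100a6 and Cd44) and none was higher, against 5.42% and 7.31% of all tested genes. The Aloxe3 libraries were all below the β-gal libraries for 4 of them, Krt8, Anxa2, S100a6 and Cd44, where 8.71% of all tested genes showed this. Each of the 10 log2 fold changes was below 0, from -0.31 for S100a6 to -0.01 for Actg1, as were 47.6% of all tested genes, except that Krt18 and Lgals3 came out above 0 after quantile normalization (0.03 each) and Actg1 without β-gal replicate 1 (0.04) or Aloxe3 replicate 8 (0.01). The median of the 10 was -0.14, beside 0.0049 over all tested genes. Most of these genes are highly expressed, and among the 1940 genes that averaged 30 RPKM or more, which include 9 of the 10, 64.6% were below 0, with a median of -0.03, 13.2% were lower at an unadjusted p under 0.05, and 20.3% had Aloxe3 libraries all below the β-gal libraries. With voom on derived reads, an alternative to the test on RPKM, Anxa2 (adjusted p = 0.032) and S100a6 (adjusted p = 0.036) were called lower, where 0.205% of all tested genes were.

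A single library carried part of this difference. β-gal replicate 1 was the highest of the 6 libraries for 9 of the 10 genes, where 15.5% of all tested genes peaked in it, and Aloxe3 replicate 8 was the lowest for 5 of the 10, where 12.9% did so. Without β-gal replicate 1 the median of the 10 was -0.07. The number with an unadjusted p under 0.05 went from 5 to 2 without that library, and to 3 without β-gal replicate 3 or Aloxe3 replicate 8. Lgals3 alone peaked elsewhere, in Aloxe3 replicate 8. In bulk RNA, fewer cells of a type and less RNA per cell cannot be told apart.

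**Figure D1:**
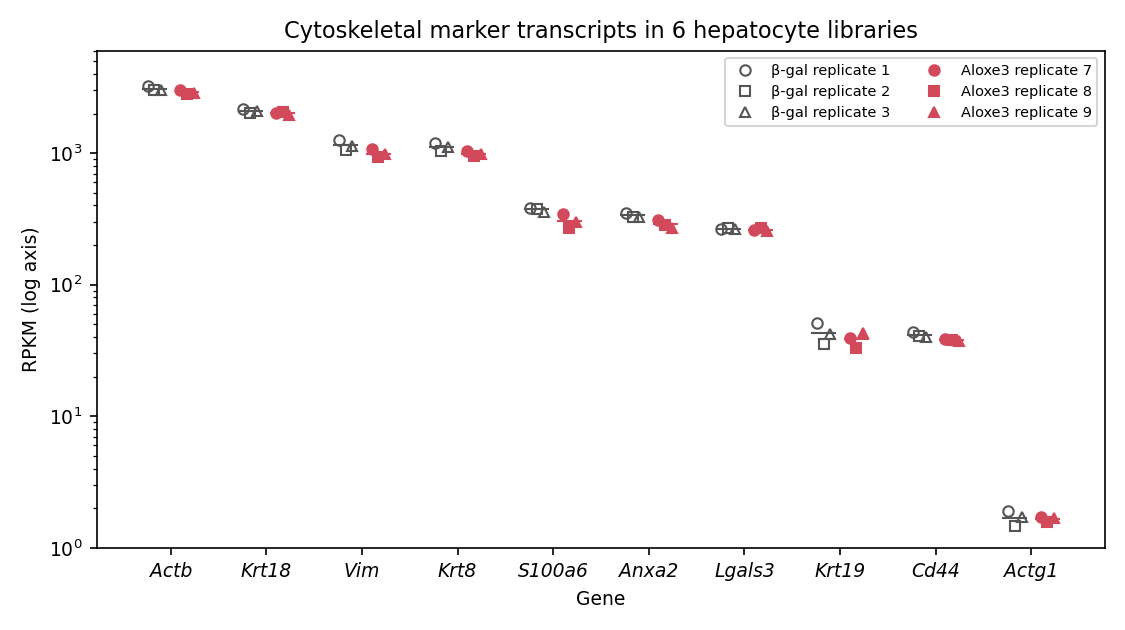
RPKM of each of the 10 genes on a log axis, with open grey symbols for the 3 β-gal libraries, filled red symbols for the 3 Aloxe3 libraries and short lines at the group means. Mean counted RPKM with β-gal ran from 3077 for Actb to 1.69 for Actg1, and for each gene the groups sit close to each other on this axis.

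By level, the genes fell into blocks. Actb was above all others in every library, followed by Krt18. Vim and Krt8 came next and overlapped, the lowest Vim library being at 929 RPKM and the highest Krt8 library at 1192 RPKM. S100a6, Anxa2 and Lgals3 formed the next block, in which neighbors in the order overlapped, all between 257 and 386 RPKM. Krt19 and Cd44 overlapped with each other, between 32.9 and 51.0 RPKM, and the counted RPKM of Actg1 stood last. Among the 12693 tested genes, ranked by mean RPKM, Actb was at rank 11, Krt18 at 16, Vim at 27 and Krt8 at 28. Reads of the 10 genes made up 1.92%, 1.76% and 1.80% of the β-gal libraries and 1.75%, 1.63% and 1.66% of the Aloxe3 libraries, of which Actb gave 0.754% to 0.860%.

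The keratins of the hepatocyte itself were abundant in both groups. Krt8 (chr15:101996698-102004482, minus strand, GRCm38) was at 1192, 1038 and 1117 RPKM in the β-gal libraries and at 1036, 946 and 977 RPKM in the Aloxe3 libraries. The groups did not overlap, though the closest pair, β-gal replicate 2 and Aloxe3 replicate 7, was nearly level. The log2 fold change was -0.18 ± 0.06 (SE, 95% interval -0.32 to -0.03, adjusted p = 0.319, limma). Its partner Krt18 (chr15:102028180-102032027, plus strand), which lies close to Krt8 on the same chromosome, was at 2177, 2006 and 2089 RPKM with β-gal and at 2019, 2040 and 1962 RPKM with Aloxe3. These groups overlapped, with a log2 fold change of -0.06 ± 0.05 (95% interval -0.17 to 0.05, adjusted p = 0.653, limma). The value was -0.03 without β-gal replicate 1 and -0.09 without β-gal replicate 2.

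Keratin 8 and keratin 18 assemble as pairs, so the ratio of their transcripts was computed within each library, along with 4 other ratios, all chosen after their values were seen. Krt8 to Krt18 was 0.548, 0.517 and 0.535 with β-gal and 0.513, 0.464 and 0.498 with Aloxe3. The groups did not overlap (two-sided exact permutation p = 0.1, the smallest that 3 against 3 libraries allow, 0.25 adjusted over 5 ratios). Of the 50-base windows of Krt8 transcripts, 26.9% also occurred in a processed copy, Krt8-ps, so its level is uncertain to the extent that reads from these windows were set aside as not unique. For Krt18 that share was 0.72%.

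Krt19, the bile duct keratin (chr11:100140810-100148665, minus strand), was present at 51.0, 35.7 and 42.1 RPKM with β-gal and at 39.4, 32.9 and 43.2 RPKM with Aloxe3. It was the most variable of the 10, with a coefficient of variation of 17.9% among β-gal libraries against a counting error of at most 2.32%, and the groups overlapped. The log2 fold change of -0.15 ± 0.14 had a 95% interval from -0.47 to 0.17 (adjusted p = 0.688, limma), which covers differences of up to a fold of 0.72 in one direction and 1.12 in the other. It was -0.02 without β-gal replicate 1, -0.04 without Aloxe3 replicate 8 and -0.27 without β-gal replicate 2. The ratio of Krt19 to Krt18 was 0.0234, 0.0178 and 0.0201 with β-gal and 0.0195, 0.0161 and 0.0220 with Aloxe3, which overlapped (exact permutation p = 0.6; 0.75 adjusted).

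Vim, the mesenchymal filament gene (chr2:13573927-13582826, plus strand), was about as abundant as Krt8. It was at 1250, 1060 and 1131 RPKM in the β-gal libraries and at 1068, 929 and 981 RPKM in the Aloxe3 libraries. One Aloxe3 library lay just above the lowest β-gal library, so the groups overlapped. The log2 fold change was -0.21 ± 0.07 (95% interval -0.38 to -0.03, adjusted p = 0.326, limma). Vim to Krt18 was 0.574, 0.528 and 0.541 with β-gal and 0.529, 0.455 and 0.4999 with Aloxe3 (exact permutation p = 0.2; 0.333 adjusted). Stellate cells, the mesenchymal cells of the liver, also express Vim. Of their defining genes, Lrat, whose enzyme esterifies retinol, was listed at 0 in every library, Des averaged 0.089 RPKM and Pdgfrb 0.044 RPKM in the β-gal libraries. The 14 stellate and mesenchymal markers summed to between 5.32 and 5.79 RPKM in the β-gal libraries and between 5.16 and 5.55 RPKM in the Aloxe3 libraries, and 3 of them passed the filter on low values, Col1a1 (2.37 RPKM with β-gal), Dcn (1.13 RPKM) and Acta2 (1.02 RPKM). The part of such cells in the Vim level was not tested.

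The 2 actins differed greatly in counted RPKM. Actb (chr5:142903115-142906754, minus strand) was at 3210, 3015 and 3006 RPKM with β-gal and at 3029, 2814 and 2885 RPKM with Aloxe3. The groups overlapped, and the log2 fold change was -0.08 ± 0.05 (95% interval -0.20 to 0.04, adjusted p = 0.560, limma), or -0.05 without β-gal replicate 1 and -0.15 after quantile normalization. Actg1 (chr11:120345690-120348542, minus strand) was at 1.90, 1.47 and 1.70 RPKM with β-gal and at 1.72, 1.57 and 1.69 RPKM with Aloxe3, from 117 to 163 reads. These values overlapped fully, with a log2 fold change of -0.01 ± 0.07 (95% interval -0.18 to 0.15, adjusted p = 0.955, limma) that came out at 0.04 without β-gal replicate 1 and at 0.01 without Aloxe3 replicate 8. The ratio of Actb to Actg1 lay between 1689 and 2046 over the 6 libraries and did not separate the groups (exact permutation p = 0.8; 0.8 adjusted).

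The low value of Actg1 needs its sequence beside it. Both genes encode nearly the same protein, and their coding sequences, 1128 bases each, were identical at 1000 positions (88.7%). The first 90 coding bases are shown because the difference between the proteins lies at this end. Capitals mark the 16 positions at which the genes differ, in GENCODE transcripts (GRCm38).
Actb: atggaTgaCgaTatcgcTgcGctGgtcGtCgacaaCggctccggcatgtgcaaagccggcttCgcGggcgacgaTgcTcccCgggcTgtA
Actg1: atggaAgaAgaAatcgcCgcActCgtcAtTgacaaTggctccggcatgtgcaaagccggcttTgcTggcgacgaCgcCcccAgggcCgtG
Windows of 50 bases, the length of a read, were shared between transcripts of Actb and Actg1 in 30 cases. The longest stretch without any difference was 62 bases, shown here because a read inside it could come from either gene. It covers coding positions 889 to 950, in exon 5 of 6 of Actb (chr5:142904101-142904162, minus strand) and in exon 4 of 5 of Actg1 (chr11:120346671-120346732, minus strand), and it was found in transcripts of 7 genes.
Shared stretch: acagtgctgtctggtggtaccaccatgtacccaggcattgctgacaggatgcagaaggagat
Over whole transcripts, 37.4% of the 50-base windows of Actg1 (1094 of 2927) also occurred in transcripts of other genes, 23 in number, and 9.12% of those of Actb did. Gm12715 alone shared 973 windows with Actg1 and was at 0.330 RPKM or less in every library. The authors counted uniquely aligned reads, and 1833 of the Actg1 windows were its own among annotated transcripts. The part of shared sequence in the low Actg1 value was not tested, since matches outside annotated transcripts were not searched, and the value is best read as the uniquely counted reads of Actg1 rather than as its level.

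Annexin A2 and S100A6, which act where membranes meet actin, had the smallest p-values of the 10. Anxa2 (chr9:69453620-69491795, plus strand) was at 350, 329 and 329 RPKM with β-gal and at 311, 283 and 268 RPKM with Aloxe3. All Aloxe3 libraries lay below all β-gal libraries. The log2 fold change was -0.23 ± 0.06 (95% interval -0.37 to -0.09, adjusted p = 0.240, limma), and it lay between -0.29 and -0.18 when single libraries were left out. S100a6 (chr3:90612882-90624181, plus strand) was at 386, 379 and 357 RPKM with β-gal and at 346, 267 and 299 RPKM with Aloxe3. Again the groups did not overlap, and the Aloxe3 libraries were spread more widely (coefficient of variation 13.02% against 3.95%). With -0.31 ± 0.09 (95% interval -0.51 to -0.10, adjusted p = 0.262, limma) it had the log2 fold change farthest from 0 among the 10, which amounts to a fold of 0.81.

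Annexin A2 forms a complex with S100A10, another S100 protein. S100a10 was at 147, 145 and 141 RPKM with β-gal and at 141, 132 and 145 RPKM with Aloxe3, with overlapping groups and a log2 fold change of -0.05 ± 0.04 (adjusted p = 0.629, limma) that was -0.02 without Aloxe3 replicate 8 or after quantile normalization and -0.08 without Aloxe3 replicate 9. Within each library Anxa2 exceeded S100a10 by a ratio of 2.37, 2.27 and 2.33 with β-gal and of 2.21, 2.14 and 1.85 with Aloxe3. The ratios did not overlap between the groups (exact permutation p = 0.1, the smallest possible, 0.25 adjusted over 5 ratios). The log2 difference of the ratios was -0.17, and -0.10 without Aloxe3 replicate 9.

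**Figure D2:**
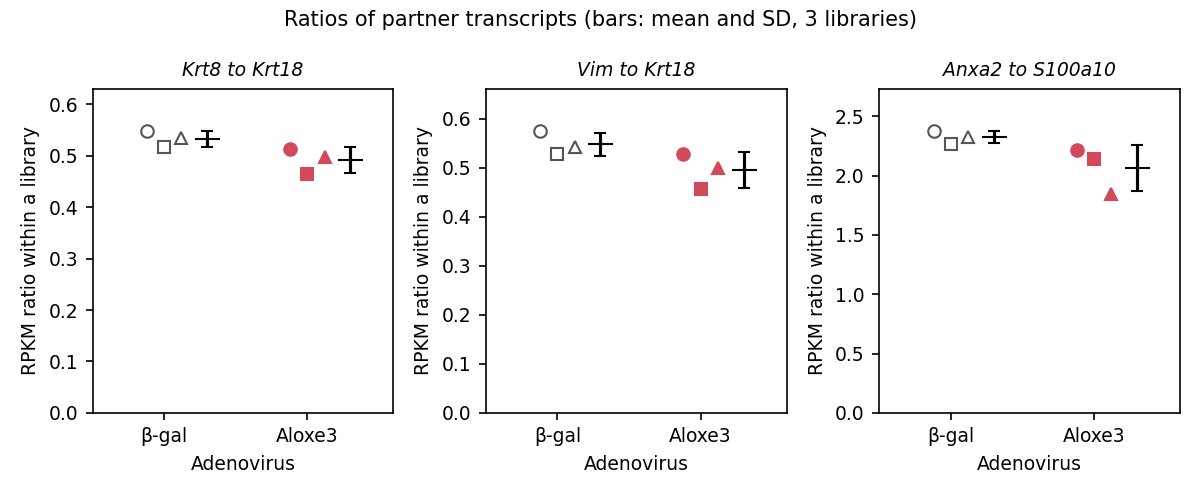
Ratios of RPKM values within each library for Krt8 to Krt18, Vim to Krt18 and Anxa2 to S100a10 on linear axes from 0, with open grey symbols for β-gal, filled red symbols for Aloxe3 and black bars for the mean and SD of 3 libraries. The groups are apart for Krt8 to Krt18 and Anxa2 to S100a10, each at the smallest permutation p that the design allows, 0.1, and overlap for Vim to Krt18.

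Lgals3, the galectin-3 gene (chr14:47367751-47386160, plus strand), had the smallest coefficient of variation of the 10 among the β-gal libraries (1.08%). It was at 264, 269 and 264 RPKM with β-gal and at 262, 269 and 257 RPKM with Aloxe3. The groups overlapped, and the log2 fold change of -0.02 ± 0.04 had a 95% interval from -0.10 to 0.06 (adjusted p = 0.880, limma), or folds of 0.93 to 1.05. It came out at 0.03 after quantile normalization, and lay between -0.034 and -0.00070 when single libraries were left out.

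Cd44, the hyaluronan receptor gene (chr2:102811141-102901665, minus strand), was at 43.4, 40.9 and 40.2 RPKM with β-gal and at 38.9, 37.9 and 37.1 RPKM with Aloxe3. The groups did not overlap, with a tight spread in both (coefficients of variation 4.09% and 2.34%). Its log2 fold change was -0.13 ± 0.04 (95% interval -0.22 to -0.03, adjusted p = 0.291, limma).

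**Figure D3:**
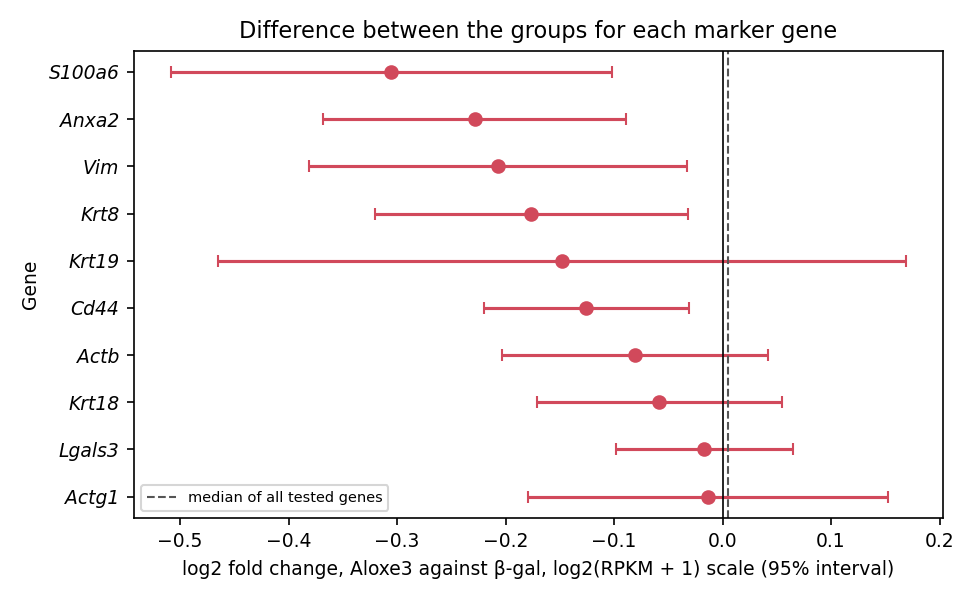
Log2 fold change of each of the 10 genes between Aloxe3 and β-gal libraries on the log2(RPKM + 1) scale, with bars for the 95% interval of the limma fit, a solid line at 0 and a dashed line at the median of all tested genes. All points lie below 0, from -0.31 for S100a6 to -0.01 for Actg1 (Krt18 and Lgals3 lie above 0 after quantile normalization, and Actg1 without β-gal replicate 1 or Aloxe3 replicate 8), and the intervals of Krt19, Actb, Krt18, Lgals3 and Actg1 include 0.

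The intervals bound what these libraries can miss. For Anxa2 the fold lay between 0.77 and 0.94, for S100a6 between 0.70 and 0.93, for Krt8 between 0.80 and 0.98, for Vim between 0.77 and 0.98, and for Actb between 0.87 and 1.03. For none of the 10 did the interval reach a fold of 0.5 or 2. In simulated libraries of the same depth with a dispersion of 0.003 for every gene, 17 of 50 genes raised by 0.32 on the log2 scale were called, beside 42 of 50 raised by 0.58 and 38 of 47 lowered to a log2 difference of -1. The changed genes were drawn from all genes averaging 0.5 RPKM or more, whereas 9 of the 10 averaged at least 30 RPKM. No small decrease was simulated. These shares therefore do not give the chance of calling any of the 10, nor a gene that varies more, such as S100a6.

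Sequence upstream of the genes was available from RefSeq (GRCm38.p6) for 8 of the 10, with Actb and Krt19 not among them. Windows from 250 bases before to 50 bases after the start site were searched on both strands for the CArG box bound by serum response factor, which controls many actin genes, for the AP-1 motif TGANTCA, for the TATA box TATAAA and for the GC box GGGCGG. A CArG box occurred in 1 of the 8, Actg1, against 1.63% of 32851 windows, and an AP-1 motif in 1, Anxa2, against 7.81%. The TATA box occurred in 3 of 8 (13.6% of all windows) and the GC box in 4 of 8 (35.7%). Not all of these lay upstream. The TATA matches of Krt8 straddled the start site (-3 to 2 and -1 to 4). The GC box of Cd44 (3 to 8) and one of those of Lgals3 (4 to 9) lay after it. A pair of windows is shown, those holding the CArG box and the AP-1 motif, cut to the bases outside the annotated gene (chr11:120348543-120348745, minus strand, and chr9:69453433-69453619, plus strand), with the motifs in capitals, some GC boxes overlapping each other.
Actg1 upstream: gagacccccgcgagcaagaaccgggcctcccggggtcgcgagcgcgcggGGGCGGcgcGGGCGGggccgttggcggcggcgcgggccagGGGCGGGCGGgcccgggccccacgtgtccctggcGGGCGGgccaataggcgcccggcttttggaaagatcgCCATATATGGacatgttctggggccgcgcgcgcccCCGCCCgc
Anxa2 upstream: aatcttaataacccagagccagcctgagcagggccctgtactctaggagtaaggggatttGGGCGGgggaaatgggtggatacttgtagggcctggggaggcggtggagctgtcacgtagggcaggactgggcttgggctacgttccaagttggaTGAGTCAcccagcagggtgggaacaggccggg
Counted from the RefSeq start site, the CArG box lies at positions -90 to -81 of Actg1 and the AP-1 motif at -95 to -89 of Anxa2. The sequences shown end 47 bases (Actg1) and 63 bases (Anxa2) before that start site. S100a6 and Krt18 held none of the 4 motifs in their windows. A match is a description of letters and no measured binding.

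The wider families of these genes were then counted, in 7 related lists. None of their 120 tested genes passed the test in either direction (limma), where 22 were lower and 3 higher at an unadjusted p under 0.05, beside 5.42% and 7.31% of all tested genes and 13.2% lower among those that averaged 30 RPKM or more. With voom 3 were called lower and 1 higher, beside 0.205% and 1.17% of all tested genes. Of the other intermediate filament genes and their linkers, 15 of 24 were tested, 11 of them below 0, with a median of -0.07. Krt17, a keratin of stressed epithelium, was at 3.46, 3.00 and 2.62 RPKM with β-gal and at 1.89, 2.06 and 2.34 RPKM with Aloxe3, with a log2 fold change of -0.37 ± 0.09 (adjusted p = 0.193, limma). Lmna, which encodes the nuclear lamins A and C, averaged 123.7 ± 4.84 and 113.9 ± 3.67 RPKM (SD, n = 3; log2 fold change -0.12, adjusted p = 0.324, limma). For both, the groups did not overlap.

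Among the other actins and actin-binding proteins, 54 of 57 genes were tested. Of these, 43 had log2 fold changes below 0 (39 after quantile normalization), beside 47.6% of all tested genes and 64.6% of those averaging 30 RPKM or more. Their median was -0.06, and -0.04 after quantile normalization. Groups not overlapping were lower for 17 and higher for 3 of the 54, beside 8.71% and 11.2% of all tested genes, the share lower being 20.3% among those averaging 30 RPKM or more. Tmsb4x, the gene of thymosin β4, which holds actin monomers in reserve, was at 43.5, 42.0 and 37.8 RPKM with β-gal and at 35.4, 27.9 and 27.4 RPKM with Aloxe3. Its log2 fold change of -0.44 ± 0.10 was the lowest of the list (adjusted p = 0.173, limma, adjusted p = 0.0081 with voom). Cotl1, whose product coactosin-like protein binds actin filaments, averaged 39.9 ± 3.53 and 32.4 ± 1.58 RPKM (log2 fold change -0.29 ± 0.07, adjusted p = 0.177, limma, adjusted p = 0.025 with voom). The most abundant of the list, Cfl1 (cofilin, which severs filaments), was at 936, 981 and 973 RPKM with β-gal and at 907, 908 and 1132 RPKM with Aloxe3. One Aloxe3 library, replicate 9, stood above the rest, and the log2 fold change was 0.02 with it and -0.09 without it.

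Transcription factors that respond to actin assembly and their targets (15 of 15 tested) had a median of -0.03, with 9 below 0. The median was -0.02 after quantile normalization, and -0.02 with 8 below 0 without β-gal replicate 1. Srf, the serum response factor, averaged 39.1 ± 1.84 RPKM in the β-gal and 35.0 ± 0.745 RPKM in the Aloxe3 libraries (log2 fold change -0.16 ± 0.04, adjusted p = 0.244, limma). Fhl2, a cofactor that is also an SRF target, averaged 35.2 ± 3.55 and 29.1 ± 1.07 RPKM (log2 fold change -0.26 ± 0.07, adjusted p = 0.240, limma). Ccn1, a YAP target and the most abundant of the list, averaged 292.3 ± 18.9 and 283.4 ± 20.3 RPKM, with a log2 fold change of -0.04 that came out above 0 without β-gal replicate 1 or Aloxe3 replicate 8.

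The 8 other annexins tested all had log2 fold changes below 0, with a median of -0.07, and none had an unadjusted p under 0.05. Anxa5, the most abundant, averaged 817.8 ± 12.9 and 792.1 ± 8.58 RPKM (log2 fold change -0.05), Anxa3 averaged 449.5 ± 6.40 and 429.5 ± 17.1 RPKM (-0.07), and Anxa7 121.0 ± 4.43 and 113.8 ± 5.02 RPKM (-0.09). Anxa5 came out at -0.08 and Anxa7 at -0.04 after quantile normalization, and Anxa3 at -0.04 without Aloxe3 replicate 9. Of the other S100 genes 6 of 11 were tested, 5 of them below 0, with a median of -0.11. S100a16 averaged 20.1 ± 1.08 and 18.2 ± 0.519 RPKM (log2 fold change -0.13, adjusted p = 0.318, limma) and S100a1 115.6 ± 4.70 and 108.6 ± 1.90 RPKM (-0.09, and -0.06 to -0.12 over the alternatives). S100a11 was at 560, 535 and 518 RPKM with β-gal and at 513, 502 and 729 RPKM with Aloxe3, and its log2 fold change was 0.09 with replicate 9 and -0.08 without it, so the library that stood apart for Cfl1 did so here too.

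Of the other galectins and related genes 7 of 7 were tested, with a median of -0.02 that was -0.0036 without β-gal replicate 1. Lgals1, the most abundant, averaged 902.9 ± 37.3 and 879.6 ± 34.2 RPKM (log2 fold change -0.04), Lgals9 203.7 ± 0.755 and 197.9 ± 4.67 RPKM (-0.04), and Lgalsl 1.04 ± 0.123 and 1.16 ± 0.0222 RPKM (0.08). The Lgals1 value was nearly 0 without β-gal replicate 1 (-0.0036) and -0.07 after quantile normalization, and over the alternatives that of Lgals9 ran from -0.06 to -0.02 and that of Lgalsl from 0.03 to 0.16. Ligands and partners of CD44 (15 of 18 tested) had 7 genes below 0 and 8 above. Their median was 0.02, and 0.0033 after rescaling to a common median. Spp1, the gene of the CD44 ligand osteopontin, was at 1447, 1431 and 1509 RPKM with β-gal and at 1638, 1618 and 1484 RPKM with Aloxe3, which overlapped (log2 fold change 0.11 ± 0.05, adjusted p = 0.433, limma, and 0.08 to 0.18 over the alternatives). Hyal2, a hyaluronidase, averaged 54.1 ± 1.29 and 49.7 ± 0.818 RPKM (log2 fold change -0.12, adjusted p = 0.263, limma). Hmmr, another hyaluronan receptor, averaged 0.392 ± 0.0272 and 0.619 ± 0.0575 RPKM (log2 fold change 0.22 ± 0.07, adjusted p = 0.288, limma), from 62 to 104 reads. For this low gene the pseudocount set the size, the log2 fold change being 0.55 with a pseudocount of 0.1 and 0.65 with voom (adjusted p = 0.040).

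**Figure D4:**
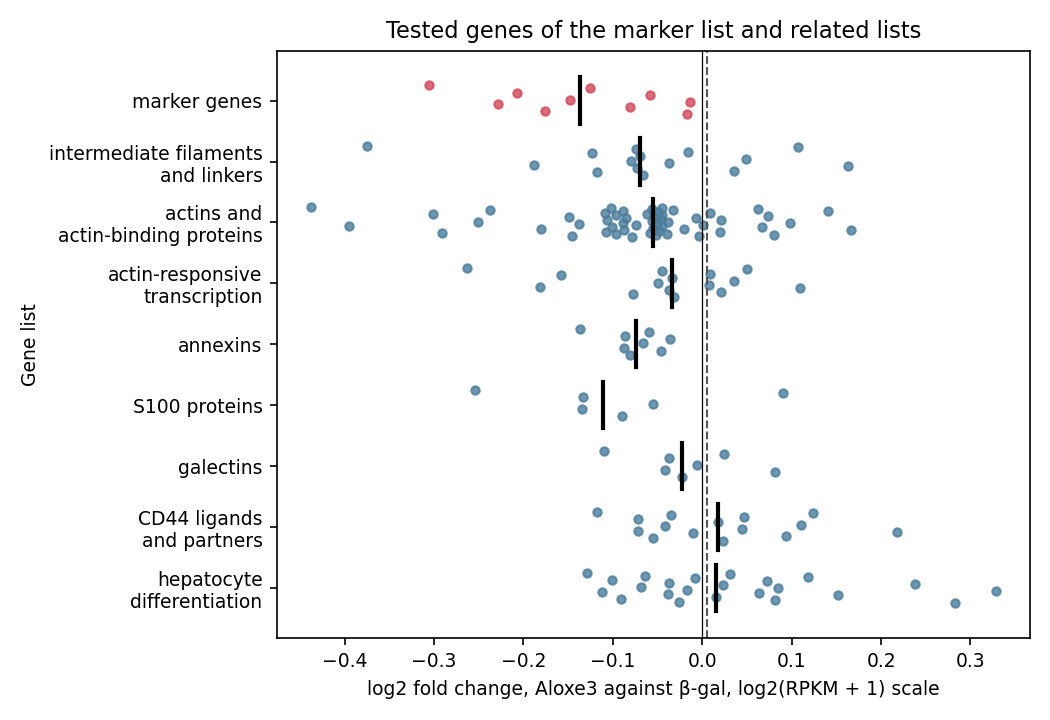
Log2 fold change (log2(RPKM + 1) scale) of every tested gene in the 10-gene set (red), the 7 related lists and the hepatocyte differentiation list (blue), with a black bar at each list's median, a solid line at 0 and a dashed line at the median of all tested genes. The 10 genes have a median of -0.14, the actin and filament lists of -0.06 and -0.07, and the hepatocyte list of 0.02. After quantile normalization the medians of the actin, filament and hepatocyte lists are -0.04, -0.05 and -0.01.

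The identity of the cells was read from marker lists. Alb, the albumin gene, averaged 4524 ± 26.2 RPKM in the β-gal and 4445 ± 76.7 RPKM in the Aloxe3 libraries, with a log2 fold change of -0.03 (adjusted p = 0.855, limma). This value lay between -0.04 and -0.01 when single libraries were left out. The level of Alb was above that of Actb. Of the listed hepatocyte genes in the table, 23 passed the filter on low values and 6 did not. Together they summed to between 5170 and 5196 RPKM in the β-gal libraries, most of it Alb. Several genes of mature liver metabolism, picked after their values were seen, were low. Cyp7a1, the rate-limiting enzyme of bile acid synthesis, was listed at 0 in every library. G6pc and Pck1, enzymes of glucose production, averaged 0.045 and 0.071 RPKM with β-gal, and Cyp3a11, a drug-metabolizing enzyme, 0.609 RPKM. Of the 30 hepatocyte genes 29 were in the table and 23 were tested, none of which passed, with 11 below 0 and a median of 0.02. Cps1, the first enzyme of the urea cycle, was at 0.915, 0.988 and 1.05 RPKM with β-gal and at 1.64, 1.29 and 1.56 RPKM with Aloxe3, without overlap (log2 fold change 0.33 ± 0.07, adjusted p = 0.161, limma), and its log2 fold change was 0.55 with a pseudocount of 0.1 and 0.59 with voom (adjusted p = 0.014). Serpina1a averaged 52.2 ± 1.07 and 48.3 ± 0.306 RPKM (log2 fold change -0.11, adjusted p = 0.262, limma).

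Markers of other liver cells were measured because several of the 10 genes are expressed by them as well. The 12 biliary markers summed to between 1532 and 1610 RPKM in the β-gal libraries and between 1600 and 1741 RPKM in the Aloxe3 libraries, nearly all of it Spp1, and the defining Krt7 and Epcam averaged 0.130 and 0.426 RPKM with β-gal. The 5 biliary genes tested from that list, which does not hold Krt19, had log2 fold changes above 0, as did 6647 of all 12693 genes. Their median was 0.10, and all 5 were above 0 under both other scalings as well. The bile duct keratin gene Krt19 was at -0.15. Of the 5, 1 passed the test, beside 0.355% of all genes called higher. This was Bicc1, an RNA-binding protein, named after its values were seen, which rose from 3.23 ± 0.215 to 4.72 ± 0.129 RPKM (log2 fold change 0.44 ± 0.05, adjusted p = 0.024, limma), a call that was lost when any of 5 of the 6 libraries was left out (adjusted p up to 0.129, every library but β-gal replicate 3) and without the filter on low values (adjusted p = 0.146). The 12 endothelial markers summed to 54.0 to 62.0 and 53.2 to 60.9 RPKM, and the 15 Kupffer cell and leukocyte markers to 167 to 173 and 147 to 162 RPKM, of which Cd68, a lysosomal protein, gave 147.9 ± 1.20 and 133.1 ± 7.21 RPKM (adjusted p = 0.262, limma). The defining Kupffer genes Clec4f, Vsig4 and Timd4 and the leukocyte gene Ptprc were below the filter, at 0.047, 0.051, 0.039 and 0.178 RPKM with β-gal. Of the 11 Kupffer cell and leukocyte genes tested, 7 had log2 fold changes below 0 and 4 above, with a median of -0.06, which was 0.03 with 4 below 0 when β-gal replicate 1 was left out. Cd68 was the 1 gene of the 11 for which all Aloxe3 libraries lay below the β-gal libraries, beside 8.71% of all tested genes. Macrophages also express Anxa2, S100a6 and Cd44, and the part of such cells in their values was not tested.

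**Figure D5:**
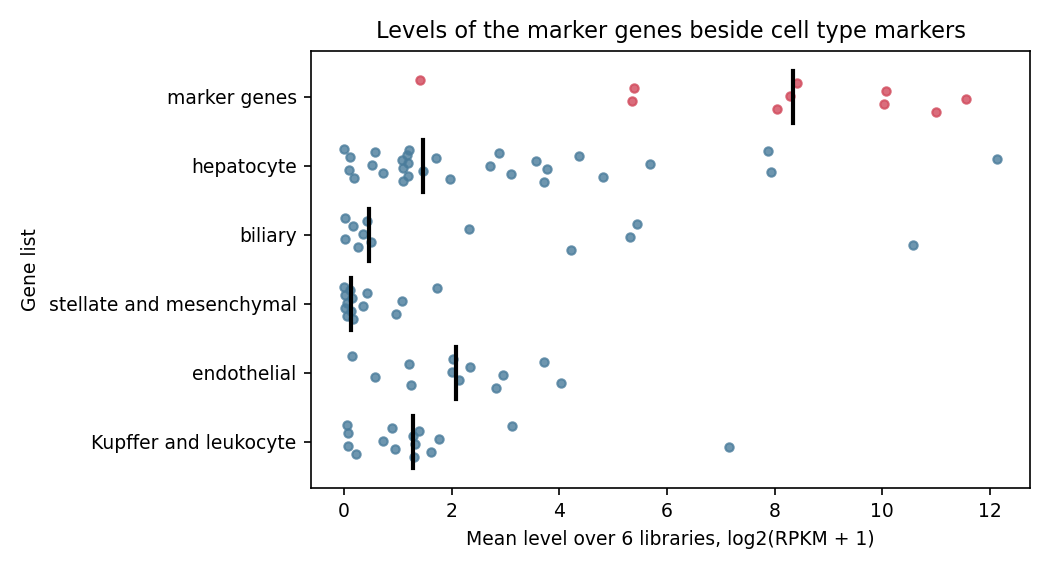
Mean level over the 6 libraries on the log2(RPKM + 1) scale for the 10 genes (red) and for the genes of the 5 marker lists (blue), with a black bar at each list's median. Apart from Actg1, the 10 genes lie above all markers of stellate, endothelial and Kupffer cells except Cd68.

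Other genes were compared with Krt8, Actb and Vim by the shape of their levels over the 6 libraries, as the mean absolute difference of log2(RPKM + 1) values centered on each gene's mean. Among the nearest to Krt8, of 4083 genes compared, were the glycolytic enzyme gene Aldoa (mean difference 0.027) and Tarbp1 (0.028). For Actb, among 6751 genes, they were Ywhag (0.012), Srsf6 (0.012) and Ankrd13a (0.013). For Vim, of 2829 genes, they included Ppm1j (0.031) and the keratin gene Krt20 (0.031). Krt20 was at 8.22, 7.44 and 7.69 RPKM with β-gal and at 7.52, 6.11 and 6.54 RPKM with Aloxe3, with overlapping groups (log2 fold change -0.19 ± 0.07, adjusted p = 0.341, limma). With only 6 libraries, such likeness describes these libraries alone.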

How the data were processed

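RNA of primary hepatocytes was extracted for 6 libraries (3 per adenovirus), selected for poly-A RNA, reverse transcribed with random hexamers and sequenced as single reads of 50 bases in 1 run. The authors aligned reads with STAR 2.0.4b to GRCm38.p2 and tallied by gene the reads with 1 unambiguous alignment in featureCounts 1.4.5 of Subread (versions per the submitters' processing notes). The deposited values are RPKM for 41388 Ensembl genes. How the authors turned counts into RPKM is not given in the sources used here, nor is a strand setting, so antisense reads cannot be told apart. Symbols and coordinates were taken from GENCODE (GRCm38), which matched 40340 identifiers, with 1048 unmatched.

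RPKM values were used as deposited. Library sizes were derived from the whole-number steps between values, at which 1 read on 1 kb equals 0.0308 to 0.0392 RPKM. Reads per gene followed from the annotated length for 16548 genes and from the smallest length giving whole reads for 8441 (Krt8, Krt18, Vim and S100a6 among them), the latter being fixed only but for a common factor. Counting errors cover counting only. Replicates of a group differed by more than sampling noise in every pair (chi-square per degree of freedom from 3.47 to 9.82). The highest values were those of Aloxe3 replicate 9 with replicate 7 (8.99) and replicate 8 (9.82), and the other pairs reached at most 5.46.

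The test was limma 3.58.1 (R 4.3.3; two-sided, eBayes with a mean-variance trend) on log2(RPKM + 1) over genes averaging 0.5 RPKM or more, with Benjamini-Hochberg adjustment at 0.05 over all 12693. This scale understates the differences of low genes. Ratios were tested by exact permutation of the libraries. No batch or block was fitted. The genes and lists were chosen with earlier results of these data known. Named are the 10 genes, Aloxe3, S100a10, in each related list and the hepatocyte list the 2 of smallest adjusted p and the 1 with the highest mean RPKM, and for Krt8, Actb and Vim the 3 genes of nearest profile (mean of at least 5 RPKM, SD over the libraries no less than a set share of the SD of the gene compared). Some genes that this rule names are not reported here. Other genes were named after their values were seen. Alternatives were a pseudocount of 0.1, no filter, a filter at 5 RPKM, quantile normalization, rescaling to a common median, eBayes without trend, voom on derived reads, and each library left out. The fit was tested on simulated reads, where 5 of 12500 unchanged genes were called and 47 of 50 raised 2-fold. Windows shared between genes were counted in GENCODE transcripts with Python 3.11.15 and pandas 2.3.3.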

Additional observations from a re-analysis of the deposited data

How the results depend on the processing

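Aloxe3 stayed above the threshold under each of 13 alternatives. The number of genes called, 50, was 174 with voom on derived reads, 7 without the filter on low values, and from 6 to 19 when single libraries were left out. None of the 10 genes was called except with voom, which called 2 (Anxa2 and S100a6), and the unadjusted p was under 0.05 for 2 to 5 of them over the alternatives. Of the related and hepatocyte lists voom called 5 genes (Tmsb4x, Tpm2, Cotl1, Hmmr and Cps1) and the other alternatives 0. The median log2 fold change of the 10 genes, -0.14, lay between -0.181 and -0.0715 when single libraries were left out, the value nearest 0 being that without β-gal replicate 1, and moved by less than the spread between replicates otherwise. Signs turned for Krt18 (0.027) and Lgals3 (0.0344) after quantile normalization, for Actg1 and Ccn1 without β-gal replicate 1 (0.0419 and 0.00808) or Aloxe3 replicate 8 (0.0119 and 0.000218), and for Cfl1 and S100a11 without Aloxe3 replicate 9 (-0.0858 and -0.0832), and the cause was not tested. Over all single libraries left out, Actg1 ran from -0.073 to 0.0419, Ccn1 from -0.0999 to 0.00808, Cfl1 from -0.0858 to 0.0744 and S100a11 from -0.0832 to 0.186. Of the ratios, the log2 difference of Krt19 to Krt18 (-0.0932) turned to 0.00953 when β-gal replicate 1 and to 0.0271 when Aloxe3 replicate 8 was left out, and that of Actb to Actg1 (-0.0622) was 0.0198 without β-gal replicate 2. Actg1 had no value with the filter at 5 RPKM. No paired analysis was possible because the groups share no replicate number. Of the 10 genes, depth limited Actg1 most, at 117 to 163 reads a library, where counting error alone reached 9.24%.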
